A study of Mus musculus with 30 samples.

Results

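The experiment described here is the induction of Prrx1 by doxycycline in transduced mouse fibroblasts. Its groups are defined by the sample labels, and the experiment was chosen with earlier results of these data known. It holds 3 libraries from Prrx1-transduced NIH3T3-CG cells given doxycycline and 3 from the same kind of cells left without it. These are 6 of the 30 bulk mRNA libraries of the series. NIH3T3 is an established line of mouse embryonic fibroblasts, and what CG stands for is not said. Cells were lifted with trypsin from 6-well plates before column extraction of RNA. All 6 libraries carry the Prrx1 construct, so the groups differ by the drug, and neither its dose nor the time of treatment is given. No library of untransduced cells with doxycycline was analysed here, so the response to Prrx1 and the response to doxycycline itself cannot be told apart. The labels give the replicates numbers and no origin, so p-values rest on variation among the libraries alone, and that variation may be technical. The series as a whole concerns how transcription factors relate to the Hedgehog response of single cells, and the comparison of these 6 libraries gives the genes whose level changed once Prrx1 was raised.

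Prrx1 is a homeodomain transcription factor of limb bud, craniofacial and other connective tissue mesenchyme, and it is widely used as a marker of fibroblasts and their progenitors. Its homeodomain binds AT-rich DNA around a TAAT core. Alternative splicing near the end of the coding sequence gives protein isoforms that share the homeodomain and differ in their tails, and the longer tail carries a conserved stretch known as the OAR domain. Doxycycline is the usual inducer of tetracycline-controlled promoters, and as an antibiotic it also inhibits ribosomes of bacteria and mitochondria.

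Depth was modest and uneven, at 7947214 to 12519319 estimated gene counts with doxycycline and 8446887 to 17025736 without. No-doxycycline replicate 2 stood apart from the other 5 libraries. It held 68 on the first principal component of log2 gene levels (43% of the variance), where the other 5 lay between −19.7 and −5.02. At an equal depth of 7947214 counts it had 16674 genes with a count, against 18111 to 19217 in the other libraries. It lacked any count for 17 of 11317 genes that reached at least 2 CPM (counts scaled to a common library size) in all of the other 5, against 0 to 4 genes in each of those. Every library departed most from its group mates among weakly expressed genes. For genes up to 2 CPM the SD on the log2 scale was 1.33 in no-doxycycline replicate 2 and 0.725 to 0.889 in the other 5. Over 100 CPM it was 0.324 in that replicate, 0.314 in no-doxycycline replicate 1 and 0.113 to 0.252 in the remaining libraries. Counts of called genes are given with no-doxycycline replicate 2 and without it.

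Mean fragment length, as implied by the deposited effective lengths, differed between the groups without overlap. It was 187, 187 and 189 bases with doxycycline and 162, 175 and 166 bases without, a difference of 19.6 bases (exact permutation test, two-sided p = 0.1, the smallest that 3 against 3 allows). The median log2 fold change ran with transcript length, from −0.077 in the shortest of 5 length groups (median length 639.5 bases) to 0.054 in the longest (3738 bases), and the part of fragment length in this was not tested. The count of 844 called genes given below depended on how this was handled. With effective length offsets that let transcript shares vary between libraries it was 302, of which 289 were among the 844, and with offsets at fixed transcript shares it was 841, of which 828 were.

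The cells read as fibroblasts in every library. Of 15 fibroblast markers 13 exceeded 1 CPM in all 6 libraries, and their summed level was 22400 to 23200 CPM with doxycycline and 18000 to 19700 CPM without. That list holds Prrx1 itself, which accounts for 3730 to 4190 CPM of the first range and 962 to 1110 CPM of the second. Lum and Fap, also on the list, stayed under 1.5 CPM throughout. The summed level of 8 epithelial markers, among them Epcam and Cdh1, did not exceed 1.27 CPM in any library. Other classes summed higher, with cartilage and bone markers at 119 to 156 CPM, mostly from Runx2 and Sox9. Muscle markers summed to 42.2 to 64.6 CPM, mostly from Ttn, and endothelial markers to 18.3 to 26.7 CPM, mostly from Pecam1. Immune markers summed to 10 to 17.9 CPM, neural markers to 4.56 to 7.23 CPM and adipocyte markers to 0.921 to 3.83 CPM. Since these are bulk samples, fewer cells of a type and less RNA per cell cannot be told apart.

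**Figure D1:**
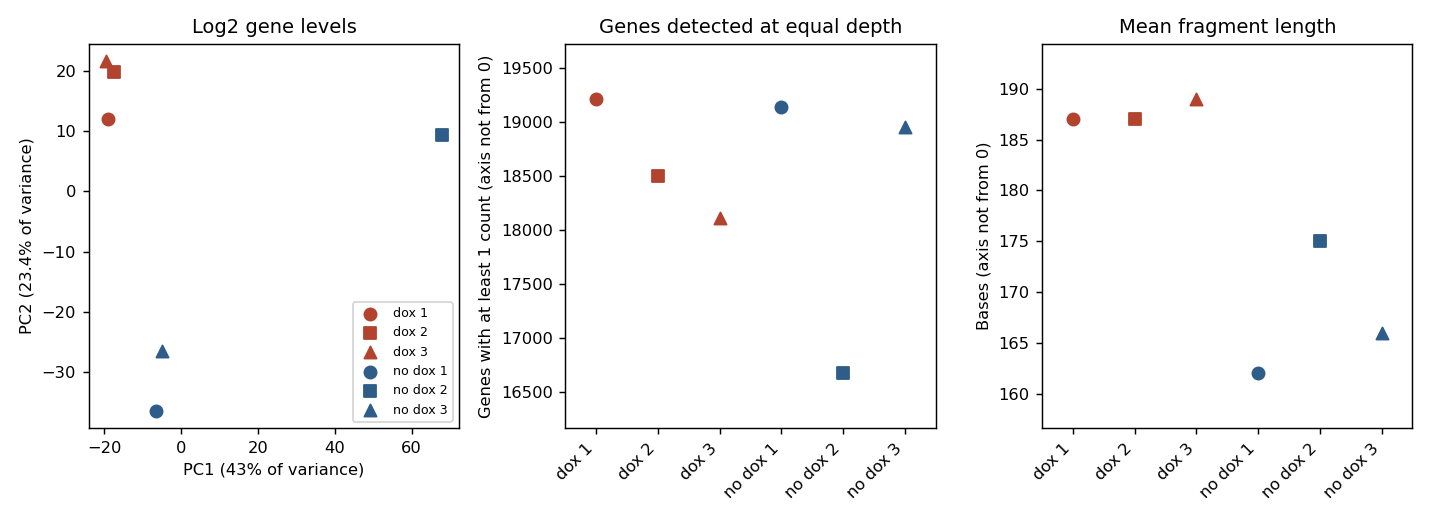
Left, the 6 libraries on the first 2 principal components of log2 gene levels; middle, genes with at least 1 count when every library is thinned to the same depth; right, mean fragment length in bases. The last 2 axes do not start at 0, colour marks the group and symbol the replicate number. No-doxycycline replicate 2 lies at 68 on the first component and at 16674 genes, and the fragment lengths of the groups do not overlap.

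Prrx1 (chromosome 1, 163245119 to 163313710, minus strand) was abundant before induction and rose further with the drug. Its level was 3728, 3830 and 4189 CPM with doxycycline and 962, 976 and 1109 CPM without it. Every doxycycline library exceeded every library without the drug by more than 3-fold, and no-doxycycline replicate 2 sat among its mates. The rise was 3.86-fold (log2 fold change 1.95 ± 0.0882 SE, adjusted p = 3.08e-07), and leaving out that replicate gave a log2 fold change of 1.92 (adjusted p = 4.38e-07). Its paralogue Prrx2, which overlaps with it in limb and face, was measured at 6.18, 6.70 and 6.38 CPM with doxycycline and 6.08, 1.05 and 3.799 CPM without it, and the difference did not pass the test (log2 fold change 0.77 ± 0.462 SE, adjusted p = 0.426). GFP, an added sequence, held 71.1, 62.5 and 63.1 CPM with doxycycline and 87.9, 82.6 and 72.6 CPM without it. The GFP groups did not overlap, with the doxycycline libraries lower, but the difference did not pass (log2 fold change −0.31 ± 0.101 SE, adjusted p = 0.112). The other added sequence, mScarlet, had no count in any of the 6 libraries, and the limit that a count of 0 allows (3 counts) was 0.176 to 0.377 CPM.

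At the transcript level the form of Prrx1 that passed the test was one whose coding sequence ends in a short alternative exon. Prrx1-202 and Prrx1-205 contain a 72-base exon that Prrx1-201 skips; in Prrx1-202 the last 52 coding bases before the stop codon lie in that exon, while Prrx1-201 goes straight to a downstream exon with 136 coding bases. The ends of both coding sequences are shown because they separate the isoform that rose from the one whose difference did not pass. Lower case marks 21 bases of the shared preceding exon and capitals the isoform's own coding end, 5′ to 3′ on the minus strand, from GENCODE M21 on mm10 (GRCm38). The capitals span chr1:163253997-163254048 in Prrx1-202 and chr1:163248261-163248396 in Prrx1-201.
Prrx1-202: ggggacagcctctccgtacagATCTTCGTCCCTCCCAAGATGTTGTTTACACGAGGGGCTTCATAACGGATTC
Prrx1-201: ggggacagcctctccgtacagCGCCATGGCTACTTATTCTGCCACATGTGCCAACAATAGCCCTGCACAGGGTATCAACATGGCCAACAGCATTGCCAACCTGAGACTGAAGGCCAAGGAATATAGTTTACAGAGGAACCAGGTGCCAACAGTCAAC

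Prrx1-202, the short-tailed form, was at 884, 941 and 1083 TPM (kallisto's length-scaled abundance) with doxycycline and 162, 183 and 228 TPM without it. The groups were far apart, and the log2 fold change was 2.31 ± 0.152 SE (adjusted p = 0.0205 over all transcripts, 0.101 without no-doxycycline replicate 2). Prrx1-201, with the longer tail, was at 38.9, 34.2 and 30.9 TPM with the drug and 41.1, 60.8 and 46.0 TPM without it, so the ranges did not overlap and the doxycycline libraries were lower. Its log2 fold change of −0.55 ± 0.125 SE did not pass (adjusted p = 0.318). Prrx1-205, annotated as a processed transcript and also holding the 72-base exon, read 539, 427 and 94.5 TPM with the drug and 51.9, 26.4 and 11.2 TPM without it. Its spread within the doxycycline group was wide, and the difference did not pass (log2 fold change 3.41 ± 0.856 SE, adjusted p = 0.391). Prrx1-204 lay at 76.6, 65.6 and 73.9 against 33.1, 37.4 and 44.7 TPM, with no overlap and a log2 fold change of 0.87 ± 0.116 SE that passed only under the stricter filter (adjusted p = 0.0958, and 0.0485 there).

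Expressed as a share of all Prrx1 TPM, the transcripts with the 72-base exon made up 92.4, 93.1 and 91.8% with doxycycline and 74.1, 67.7 and 72.2% without it. Every induced library exceeded every uninduced one, with a mean difference of 21.1 percentage points (exact permutation test, two-sided p = 0.1, the smallest 3 against 3 allows). In the Prrx1 plasmid transfection of the same series the share was 99.1 to 99.4%, and under its control plasmid 49.7 to 52.8%. Without the drug, the transduced cells thus lay above the control plasmid cells in both that share and in total Prrx1, by 289 to 331 against 144 to 246 TPM; these are separate experiments, and the cause of the difference was not tested. Reads do not tell the construct from the chromosomal gene where their sequences coincide, so neither source was separated.

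**Figure D2:**
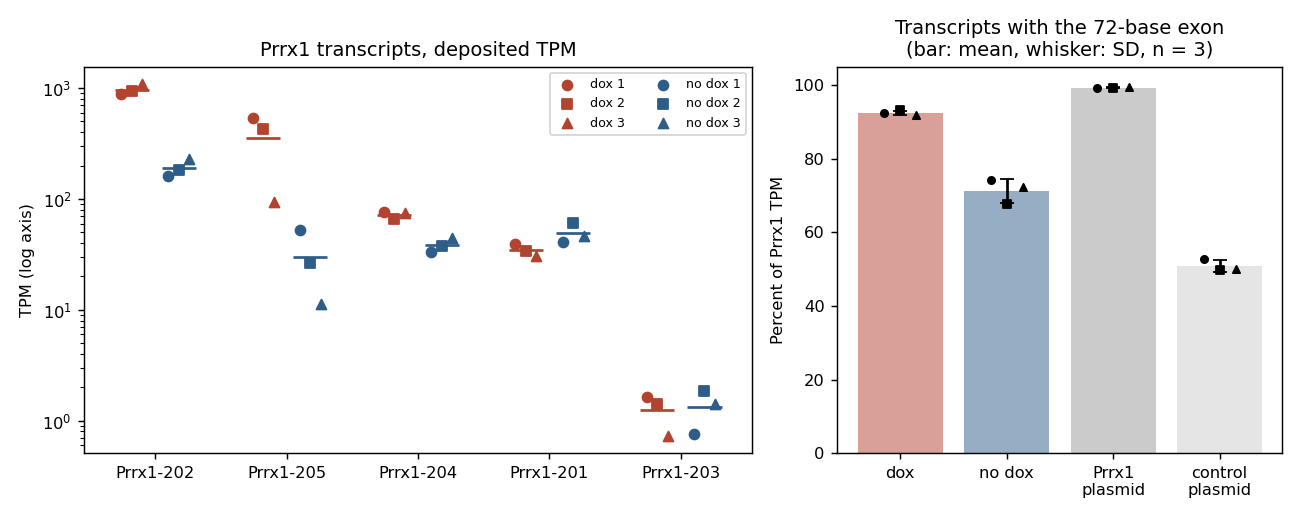
Left, deposited TPM of the Prrx1 transcripts in each library (log axis), with a line at the group mean; right, percent of Prrx1 TPM in the transcripts that hold the 72-base exon, with bars at the mean and whiskers at the SD of 3 libraries. The share is 91.8 to 93.1% with doxycycline and 67.7 to 74.1% without.

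Across the transcriptome, a minority of genes passed the test with doxycycline, most of them with changes under 2-fold. Of 13633 genes tested with edgeR's quasi-likelihood test, 844 changed at an adjusted p under 0.05, which is 6.19%, with 471 higher (3.45%) and 373 lower (2.74%). Only 154 of them moved by more than 2-fold. In simulated counts with known changes this test recovered 29.7% of 1.5-fold, 68.7% of 2-fold and 89.2% of 4-fold changes. Genes that did not pass may therefore have changed as well. In all 844 the groups did not overlap, a property that 25.4% of tested genes had. Without no-doxycycline replicate 2 the count grew to 1250 of 14024 (8.91%), 632 higher (4.51%) and 618 lower (4.41%), 228 of them past 2-fold, and the share of genes without overlap to 39.5%. Of the 844 genes, 790 stayed called, which is 93.6% of that list and 63.2% of the longer one, and all 790 kept their direction. The biological coefficient of variation was 0.161 with the library and 0.123 without it. For each gene list, a pair of counts without no-doxycycline replicate 2 gives the members higher and lower in that fit, to be read against these 4.51 and 4.41%. The lists were chosen with earlier results of these data known, so a called share above 6.19% may be partly built in and is not read as enrichment. The 6.19% also includes weakly expressed genes, and under the stricter filter of 5 CPM in 3 libraries 868 of 10614 genes were called. Leaving out doxycycline replicate 1, 2 or 3 gave 421, 335 and 384 called genes, and leaving out no-doxycycline replicate 1 or 3 gave 741 and 515.

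**Figure D3:**
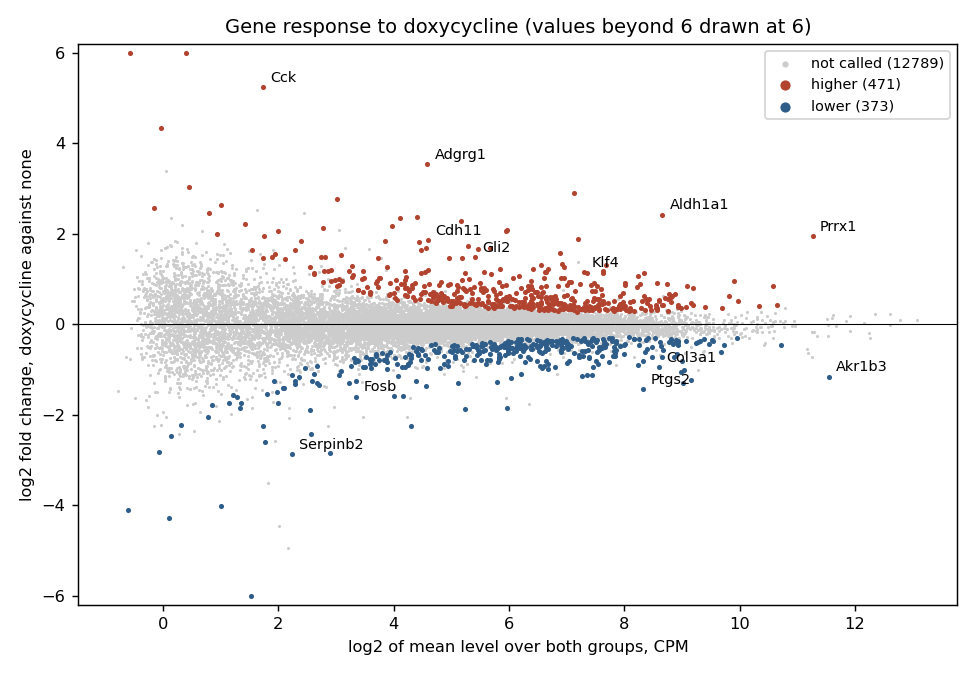
Each point is a tested gene, placed by the log2 of its mean level over both groups (CPM) and its log2 fold change with doxycycline; coloured points passed an adjusted p of 0.05. The 471 higher and 373 lower genes spread over the whole range of levels, and Prrx1 combines one of the highest levels with a log2 fold change of 1.95.

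The strongest rises fell on genes for secreted and surface proteins and on aldehyde dehydrogenases. Cck, which encodes the peptide hormone cholecystokinin, was close to silent without the drug at 0.246, 0 and 0.181 CPM and reached 4.95, 6.51 and 8.16 CPM with it. No library without the drug came near the induced ones, and the fitted rise was 37.8-fold (log2 fold change 5.24 ± 0.553 SE, adjusted p = 0.000169), a size that is loosely fixed because the uninduced level rests on few counts. Adgrg1, an adhesion receptor coupled to G proteins, stood at 44.0, 45.2 and 43.6 CPM with doxycycline and 4.36, 3.86 and 3.08 CPM without it, an 11.6-fold rise (log2 fold change 3.54 ± 0.156 SE, adjusted p = 3.08e-07). The 3 induced libraries lay within 2 CPM of each other. Prelp, a leucine-rich proteoglycan that anchors basement membranes to collagen, was at 18.2, 13.99 and 10.3 CPM with doxycycline and 2.58, 1.05 and 2.35 CPM without it (log2 fold change 2.77 ± 0.329 SE, adjusted p = 0.000427). Ptx3, a secreted pentraxin of innate immunity and of the hyaluronan-rich matrix, was at 27.7, 27.8 and 30.8 CPM with doxycycline and 5.90, 8.77 and 2.53 CPM without it; its uninduced values spread widely, yet none approached the induced ones (log2 fold change 2.35 ± 0.348 SE, adjusted p = 0.00703).

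Intracellular enzymes and regulators made up most of the other large rises. Arnt2, a partner of bHLH-PAS transcription factors, read 62.6, 58.9 and 58.8 CPM with doxycycline and 13.3, 8.19 and 15.2 CPM without it (log2 fold change 2.28 ± 0.183 SE, adjusted p = 3.19e-05). Fgd3, an exchange factor for the small GTPase Cdc42, read 24.7, 25.3 and 27.6 CPM with doxycycline and 6.08, 5.497 and 5.52 CPM without it (log2 fold change 2.18 ± 0.156 SE, adjusted p = 1.05e-05). Dio2, the deiodinase that activates thyroid hormone, read 11.01, 9.91 and 12.8 CPM with doxycycline and 3.13, 1.52 and 2.89 CPM without it (log2 fold change 2.12 ± 0.284 SE, adjusted p = 0.000957). In each of these the lowest induced library exceeded the highest uninduced one by more than 3-fold. Man1a, a Golgi mannosidase of N-glycan trimming, rose 4.27-fold and Pitpnc1, a phosphatidylinositol transfer protein, 4.21-fold (adjusted p = 3e-06 and 1.03e-06). Ly6c1, a small surface protein attached by a lipid anchor, rose 5.17-fold (adjusted p = 1.72e-05), a value that is uncertain since only 53.2% of its transcript 31-mers are found in no other gene. All 12 stayed called with any 1 of the 6 libraries left out.

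Among the 12 largest falls were immune mediators and protease inhibitors. Serpinb2, an inhibitor of urokinase, dropped from 6.45, 9.94 and 8.59 CPM to 0.866, 1.26 and 1.21 CPM with doxycycline (log2 fold change −2.87 ± 0.324 SE, adjusted p = 0.000286; 88.8% unique 31-mers). Tnfsf18, the ligand of the T cell receptor GITR, went from 7.74, 14.5 and 7.78 CPM to 2.10, 1.85 and 1.62 CPM (log2 fold change −2.42 ± 0.329 SE, adjusted p = 0.00103). Ccl9, a CC chemokine, went from 25.4, 39.9 and 32.8 CPM to 6.92, 7.09 and 6.47 CPM (log2 fold change −2.25 ± 0.186 SE, adjusted p = 2.54e-05). In these 3 genes every induced library lay far below every uninduced one, and no-doxycycline replicate 2 was the highest library for all 3. Cp, the copper-carrying ferroxidase ceruloplasmin, fell 6.10-fold (adjusted p = 0.00444) and Brinp1, a secreted inhibitor of neural proliferation, 3.74-fold (adjusted p = 0.00141). Pi15, a peptidase inhibitor, was at 10.02, 5.34 and 8.73 CPM with doxycycline and 22.4, 24.6 and 25.3 CPM without it and Upk1b, a tetraspanin of urothelial plaques, at 9.40, 9.23 and 8.41 CPM with doxycycline and 28.7, 28.1 and 24.3 CPM without it; both fell to about the same extent (−1.59 and −1.59 on the log2 scale, adjusted p = 0.000882 and 5.88e-05). Fam110c, a protein of centrosome and microtubules, fell 3.36-fold (adjusted p = 0.00577).

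Has2, the main hyaluronan synthase of fibroblasts, went from 6.08, 4.56 and 6.87 CPM to 2.10, 1.65 and 2.42 CPM (log2 fold change −1.50 ± 0.320 SE, adjusted p = 0.0177), but its call ended without any 1 of 5 libraries, all but no-doxycycline replicate 2 (adjusted p up to 0.102 with doxycycline library 2 left out). The other falls were of AC125149.1, an unplaced gene that lost its call without 4 of the 6 libraries (adjusted p up to 0.0915 with doxycycline library 2 left out), and of AL731706.1, none of whose 31-mers is unique and whose adjusted p reached 0.05 with doxycycline library 2 left out. The remaining 9 falls kept their call with any 1 library left out, and so did 21 of the 24 genes in all.

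**Figure D4:**
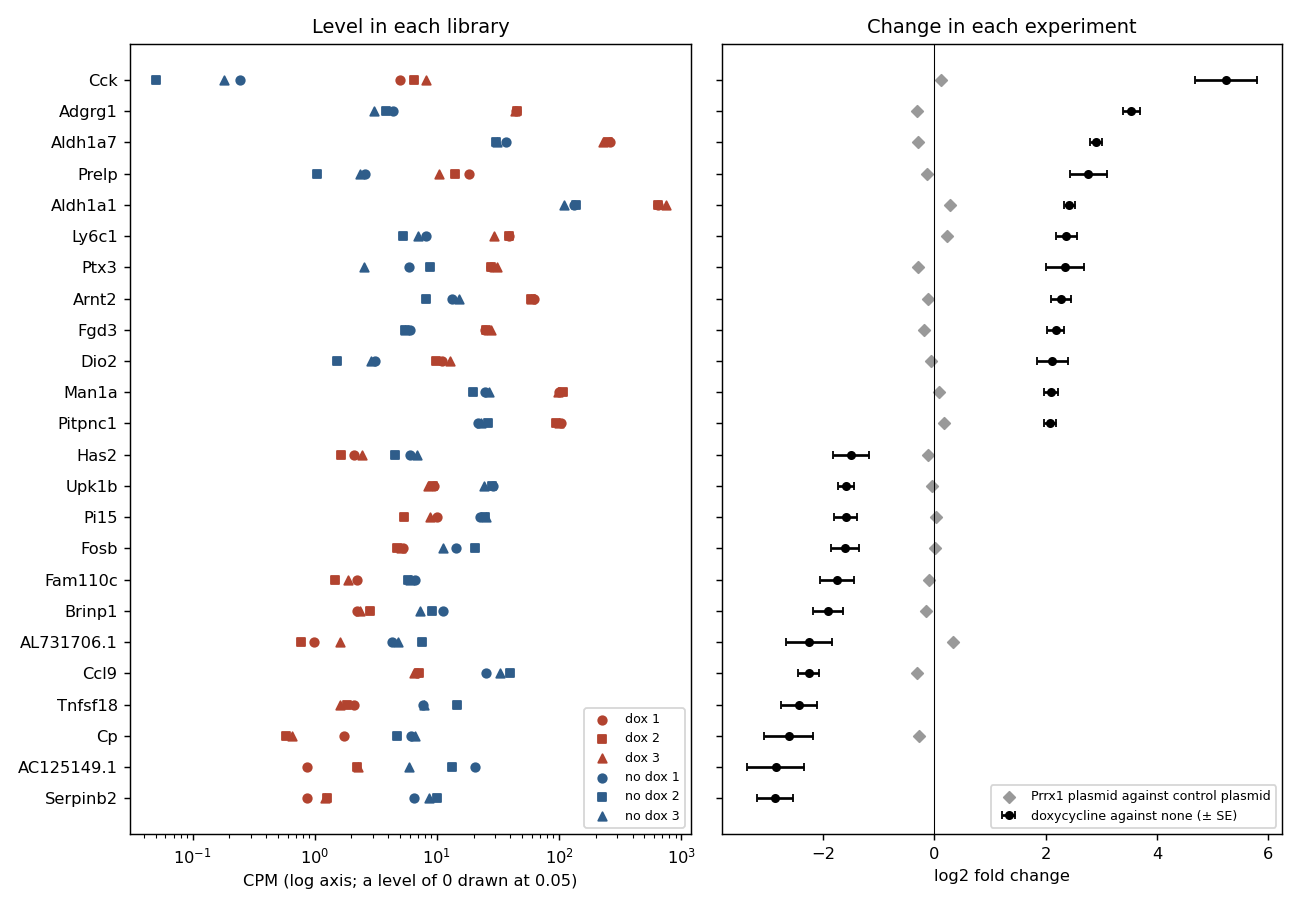
Left, level of the 12 largest rises and 12 largest falls in each library (CPM, log axis, a level of 0 drawn at 0.05); right, log2 fold change with doxycycline (± SE) and with the Prrx1 plasmid against its control plasmid, where the gene was tested there. The 24 genes were picked among those whose groups do not overlap, and the plasmid changes of the 21 genes tested there lie between −0.315 and 0.342.

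RefSeq promoter windows (GRCm38.p6, 250 bases before to 50 after a start site) were found for 20 of 25 genes looked up, the 24 above and Gli2. The palindrome TAATTA, a core of homeodomain binding, occurred in the windows of Ptx3 and Tnfsf18 and not in those of the other 18 genes. Both are shown with the match in capitals, one from a gene that rose and the other from a gene that fell. The windows are chr3:66219637-66219936 (plus strand, match starting 97 bases before the start site) and chr1:161494407-161494706 (plus strand, match 41 bases before it).
Ptx3: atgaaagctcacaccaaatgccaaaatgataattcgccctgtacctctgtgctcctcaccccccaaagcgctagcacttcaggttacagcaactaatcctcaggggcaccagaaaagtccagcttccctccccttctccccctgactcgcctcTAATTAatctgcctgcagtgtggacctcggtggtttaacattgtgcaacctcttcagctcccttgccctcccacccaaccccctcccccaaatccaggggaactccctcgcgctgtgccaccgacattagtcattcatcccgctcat
Tnfsf18: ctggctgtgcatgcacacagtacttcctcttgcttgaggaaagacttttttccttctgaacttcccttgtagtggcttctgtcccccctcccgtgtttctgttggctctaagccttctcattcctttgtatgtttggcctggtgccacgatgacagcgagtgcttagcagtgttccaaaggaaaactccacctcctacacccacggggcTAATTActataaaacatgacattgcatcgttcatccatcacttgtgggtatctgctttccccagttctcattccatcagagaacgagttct

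Over the whole table, 5.29% of 32851 windows hold TAATTA. Counted per tested gene with a window, the shares were 4.74% of 359 genes that rose, 3.92% of 255 that fell and 3.64% of 9368 that were not called. For TGANTCA, the element bound by AP-1, which is also its own reverse complement and does not overlap TAATTA, the shares were 8.36, 10.2 and 6.38%. Of all 9982 tested genes with a window, 6.55% hold TGANTCA and 3.69% TAATTA. Counted per window, TGANTCA is in 7.81% of the whole table. These are matches of letters in a short window and no test was made of them.

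Hedgehog signal passes from ligand to the receptor Ptch1, then to Smo, and then to the Gli transcription factors, of which Gli2 is the main activator and Gli1 a target and amplifier. Of 37 listed pathway and target genes 31 were tested, and 4 rose, 1 fell and 26 did not pass (16.1% called against 6.19% of all genes; 4 and 1 without no-doxycycline replicate 2; median log2 fold change 0.03 against −0.0074). Gli2 (chromosome 1, 118834132 to 119053619, minus strand) was at 66.3, 62.1 and 58.8 CPM with doxycycline and 19.6, 27.4 and 20.4 CPM without it. Every induced library was more than 2 times as high as no-doxycycline replicate 2, the highest of the uninduced group, and the rise was 2.79-fold (log2 fold change 1.48 ± 0.138 SE, adjusted p = 5.88e-05; 1.64 without that replicate). Gas1, a ligand coreceptor, was at 45.1, 39.9 and 38.1 CPM with doxycycline and 27.1, 14.8 and 23.9 CPM without it (log2 fold change 0.88 ± 0.192 SE, adjusted p = 0.0232). Here no-doxycycline replicate 2 was the lowest library, and the call ended without 4 of the 6 libraries (adjusted p up to 0.109 with doxycycline library 1 left out).

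The remaining called Hedgehog genes moved less. Mosmo, a modulator that lowers Smo at the cell surface, was at 41.3, 43.7 and 43.6 CPM with doxycycline and 32.3, 33.5 and 31.8 CPM without it (log2 fold change 0.40 ± 0.103 SE, adjusted p = 0.0421), and Prkaca, a catalytic subunit of the kinase that restrains Gli activators, at 92.1, 102 and 101 CPM with doxycycline and 119, 139 and 124 CPM without it (log2 fold change −0.37 ± 0.0884 SE, adjusted p = 0.0288). In both the groups were separate, and both calls ended with some single libraries left out (adjusted p up to 0.195 with doxycycline library 2 left out and 0.133 with doxycycline library 1 left out). Ccnd1, cyclin D1, a target shared with many pathways, rose from 126, 120 and 108 CPM to 269, 304 and 309 CPM (log2 fold change 1.32 ± 0.0888 SE, adjusted p = 7.2e-06; 77.7% unique 31-mers) and kept its call with any 1 library left out.

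The readouts of an active pathway did not pass. Gli1 was at 1.11, 2.62 and 1.54 CPM with doxycycline and 2.21, 3.51 and 1.99 CPM without it (log2 fold change −0.52 ± 0.469 SE, adjusted p = 0.605) and Ptch1 at 34.4, 36.7 and 37.6 CPM with doxycycline and 26.2, 39.1 and 29.9 CPM without it (log2 fold change 0.20 ± 0.147 SE, adjusted p = 0.516), with overlapping groups in both. No-doxycycline replicate 2 was the highest of all 6 libraries for both genes, and without it the log2 fold changes were −0.25 (adjusted p = 0.8) and 0.38 (0.0666). Smo (0.32 ± 0.140 SE, adjusted p = 0.257) and Gli3 (0.07 ± 0.0934 SE, adjusted p = 0.758) overlapped between groups as well. Shh and the feedback inhibitor Hhip were among the 6 listed genes that did not pass the filter on low counts. No member of the list of 48 tested primary cilium genes, which house the pathway, was called (6 higher and 2 lower with unadjusted p under 0.05, and 0 by DESeq2; 2 and 1 without no-doxycycline replicate 2).

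Collagens split in opposite directions. Of 32 tested collagen and collagen assembly genes 6 rose, 5 fell and 21 did not pass (34.4% called; 5 and 6 without no-doxycycline replicate 2). Col5a2, a regulator of fibril diameter, was at 1253, 1299 and 1262 CPM with doxycycline and 686, 623 and 642 CPM without it, and Col6a3, of the beaded microfibrils, at 566, 549 and 559.7 CPM with doxycycline and 266, 317 and 316 CPM without it; the groups of both lay far apart (log2 fold change 0.97 ± 0.0758 SE, adjusted p = 1.72e-05; log2 fold change 0.90 ± 0.0858 SE, adjusted p = 7.44e-05). Loxl3, a lysyl oxidase that cross-links matrix, rose 2.52-fold (adjusted p = 0.000427). Against these, Col3a1, the fibrillar collagen of loose connective tissue, fell from 531, 514 and 492 CPM to 286, 264 and 245 CPM (log2 fold change −0.95 ± 0.0822 SE, adjusted p = 3.49e-05). Adamts14 (−0.79) and Adamts2 (−0.33), which remove procollagen propeptides, and the prolyl hydroxylases P4ha3 (−0.69) and P4ha1 (−0.31) also fell. The calls of these 4 processing genes each ended without 4 or 5 of the 6 libraries (adjusted p up to 0.139, 0.165, 0.13 and 0.166), while Col5a2, Col6a3, Loxl3 and Col3a1 kept theirs.

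Non-collagen matrix changed about as often, and more of it fell. Of 40 tested glycoproteins and proteoglycans 5 rose and 10 fell (37.5% called; 6 and 9 without no-doxycycline replicate 2). Besides Prelp, the rises were of Thbs2, an antiangiogenic thrombospondin, from 209, 201 and 199 CPM to 435, 435 and 459.9 CPM (log2 fold change 1.13 ± 0.0725 SE, adjusted p = 6.91e-06), of Tnxb, tenascin X (0.97 ± 0.114 SE, adjusted p = 0.000381), of Emilin2 of elastic fibres (0.56 ± 0.0807 SE, adjusted p = 0.00166), and of Aspn, asporin. Aspn was low, at 3.59, 2.14 and 3.15 CPM with doxycycline and 0.246, 0.468 and 0.904 CPM without it (log2 fold change 2.47 ± 0.568 SE, adjusted p = 0.0251). Falls included Has2 and Postn, periostin, which was at 1.24, 1.26 and 1.13 CPM with doxycycline and 3.19, 3.27 and 4.61 CPM without it (log2 fold change −1.60 ± 0.393 SE, adjusted p = 0.0344). Aspn and Postn lost their calls without 4 and 5 of the libraries in turn (adjusted p up to 0.134 with doxycycline library 1 left out and 0.154 with no-doxycycline library 3 left out).

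Pericellular proteases and their inhibitors changed in both directions. In the list of matrix proteases and inhibitors 3 of 24 rose and 6 fell (37.5% called; median −0.16), and without no-doxycycline replicate 2 5 rose and 6 fell. Plau, urokinase, an activator of plasminogen, went from 24.9, 21.9 and 25.7 CPM to 9.77, 16.5 and 11.5 CPM (log2 fold change −0.94 ± 0.190 SE, adjusted p = 0.0135), a call that ended without 3 libraries (adjusted p up to 0.094 with doxycycline library 3 left out). Adam12, a membrane metalloprotease of mesenchyme, fell 1.93-fold (adjusted p = 0.000293). The rises were of Timp3, a matrix-bound inhibitor of metalloproteases (0.60, adjusted p = 0.0016), Adamts12 (0.51, adjusted p = 0.0246) and Reck, a membrane inhibitor (0.49, adjusted p = 0.0443), of which Timp3 alone kept its call with each library left out.

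Adhesion receptors changed with Cdh11 and Adgrg1 in front. Of 32 tested cadherins and adhesion receptors 6 rose and 3 fell (28.1% called; 6 and 4 without no-doxycycline replicate 2). Cdh11, the cadherin of mesenchyme and osteoblasts, rose from 11.7, 9.82 and 9.68 CPM to 38.7, 37.3 and 38.3 CPM; the 3 values within each group lay within 2 CPM of each other (log2 fold change 1.86 ± 0.131 SE, adjusted p = 9.66e-06). Vcam1, a ligand of leukocyte integrins that stromal cells carry, went from 122, 119 and 123 CPM to 222, 225 and 222 CPM (log2 fold change 0.88 ± 0.0713 SE, adjusted p = 2.17e-05). Itga8, an integrin chain of mesenchymal cells, was low at 5.32, 5.15 and 2.91 CPM with doxycycline and 1.23, 0.936 and 0.633 CPM without it (log2 fold change 2.21 ± 0.440 SE, adjusted p = 0.0121), and its direction turned on the TPM scale and with effective length offsets, to between −0.17 and −0.14, so its rise is uncertain. The falls were of Alcam (−1.14), Itga6 (−0.45) and Itgb1 (−0.37), whose adjusted p reached 0.0687 with doxycycline library 2 left out, 0.0747 with doxycycline library 2 left out and 0.132 with doxycycline library 2 left out.

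Mesenchymal and limb transcription factors changed in 6 of 40 tested members (15% called), of which Prrx1 is one. They were 5 higher and 1 lower, against 5 and 3 without no-doxycycline replicate 2. Snai2, a repressor of epithelial genes that drives mesenchymal states, was at 118, 110.5 and 131 CPM with doxycycline and 51.8, 49.7 and 53.2 CPM without it (log2 fold change 1.22 ± 0.0922 SE, adjusted p = 1.37e-05). Hoxa5, a positional factor, fell from 63.7, 63.5 and 66.1 CPM to 39.3, 40.1 and 32.3 CPM (log2 fold change −0.79 ± 0.110 SE, adjusted p = 0.00124). For Snai2 and Hoxa5 the groups were separated by more than the whole range within either. Zeb1 (0.40) and Zeb2 (0.34) rose as well, but without some single libraries their adjusted p reached 0.0898 with doxycycline library 3 left out and 0.115 with doxycycline library 3 left out.

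The list of retinoid handling genes held the gene with the lowest adjusted p of the whole comparison, Aldh1a7, whose action on retinoids was not measured. Vitamin A reaches cells as retinol, which dehydrogenases turn to retinal and then to retinoic acid, a ligand of nuclear receptors. Aldh1a1, which carries out the second step, went from 134, 137 and 109.9 CPM to 648, 650.4 and 744 CPM (log2 fold change 2.42 ± 0.104 SE, adjusted p = 3.08e-07). Its near relative Aldh1a7 went from 37.1, 30.4 and 31.2 CPM to 260.4, 253 and 228 CPM (log2 fold change 2.90 ± 0.103 SE, adjusted p = 9.72e-08; 86.2% unique 31-mers), the lowest adjusted p among the 13633 genes. In both, each induced library stood more than 4 times as high as the highest uninduced one. Crabp1, which binds retinoic acid in the cytoplasm, rose 1.90-fold (adjusted p = 0.000716), and Rdh10, the retinol dehydrogenase, 1.93-fold (adjusted p = 0.046, and up to 0.17 with doxycycline library 2 left out). In all 4 of 16 tested members rose and 0 fell (25% called; 4 and 0 without no-doxycycline replicate 2; 4 and 0 also with unadjusted p under 0.05 and by DESeq2), and the retinoic acid receptors and Cyp26b1, a degrading enzyme that the acid induces, did not pass.

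Of TGF-beta and BMP genes 4 of 38 rose and 5 fell (23.7% called). The balance turned without no-doxycycline replicate 2, with 6 higher and 3 lower. Ligands went both ways, with Tgfb1 (−0.57) and Tgfb2 (−0.60) falling and Tgfb3 (0.47) rising, and each of these calls ended without at least 3 libraries (adjusted p up to 0.193 with doxycycline library 2 left out, 0.165 with doxycycline library 2 left out and 0.201 with doxycycline library 3 left out). The type I receptor Tgfbr1 rose from 36.1, 24.4 and 30.4 CPM to 53.7, 52.8 and 54.6 CPM (log2 fold change 0.82 ± 0.137 SE, adjusted p = 0.00426). Of the targets, Tgfbi was at 29.6, 24.7 and 26.8 CPM with doxycycline and 13.3, 14.3 and 15.3 CPM without it (log2 fold change 0.92 ± 0.138 SE, adjusted p = 0.00216) and so rose. Smad3 (−0.40), Inhba (−0.37) and Fstl1 (0.39) moved by less and lost their calls without 4 or 5 of the libraries (adjusted p up to 0.143 with doxycycline library 3 left out, 0.229 with doxycycline library 2 left out and 0.121 with doxycycline library 2 left out).

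Wnt genes leaned upward, with 6 of 29 tested members higher and 1 lower (24.1% called; 8 and 1 without no-doxycycline replicate 2; median 0.16). Wnt5a, a noncanonical ligand of limb mesenchyme, was at 34.2, 31.1 and 30.2 CPM with doxycycline and 16.8, 18.6 and 15.9 CPM without it (log2 fold change 0.90 ± 0.127 SE, adjusted p = 0.00135), while the ligand Wnt9a fell from 51.0, 67.4 and 56.4 CPM to 36.1, 33.0 and 31.4 CPM (log2 fold change −0.80 ± 0.1250 SE, adjusted p = 0.00279). Rnf43, a ubiquitin ligase that removes Wnt receptors and is itself a Wnt target, rose 2.04-fold (adjusted p = 0.00308). The groups of these 3 did not overlap, and their calls held with any library left out. Dkk3, a secreted member of the Dickkopf family, rose 1.82-fold (adjusted p = 0.0164, up to 0.103 with doxycycline library 3 left out).

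In the Notch list 2 of 17 rose and 1 fell (17.6% called; 2 and 1 without no-doxycycline replicate 2). Rbpj, the DNA-binding partner of cleaved Notch, went from 197, 182 and 205 CPM to 401, 412 and 409.7 CPM (log2 fold change 1.06 ± 0.0757 SE, adjusted p = 1.01e-05; 88.4% unique 31-mers). Jag1, a ligand (0.49), and Notch4, a receptor (−0.92), changed less surely, with adjusted p up to 0.137 with doxycycline library 2 left out and 0.157 with doxycycline library 1 left out. Growth factors and their receptors counted 6 higher and 4 lower of 38 (26.3% called; 7 and 4 without no-doxycycline replicate 2). Fgf7, a mesenchymal factor that acts on epithelium, was at 68.4, 75.2 and 81.2 CPM with doxycycline and 43.2, 34.5 and 39.0 CPM without it (log2 fold change 0.94 ± 0.113 SE, adjusted p = 0.000435). Igfbp4, which sequesters insulin-like growth factors, rose 1.77-fold (adjusted p = 0.000308) and Fgf2 2.04-fold (adjusted p = 0.00845, and 0.0583 with doxycycline library 3 left out). The falls were of the ligands Nrg1 (−0.77, adjusted p = 0.000204), Vegfa (−0.59, adjusted p = 0.00101) and Hbegf (−0.56, adjusted p = 0.0277, up to 0.145 with doxycycline library 2 left out), and of Dusp5, a phosphatase that ERK signalling induces (−0.84, adjusted p = 0.00862, up to 0.0617 with doxycycline library 2 left out).

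Cytokines and chemokines counted 6 higher and 3 lower of 29 (31% called; 8 and 3 without no-doxycycline replicate 2). The 3 that fell were Tnfsf18 and Ccl9, described above, and Csf1, the macrophage growth factor (−0.56 ± 0.0849 SE, adjusted p = 0.00219). Besides Ptx3, Tnfrsf11b, the decoy receptor osteoprotegerin, rose; it was at 6.92, 8.26 and 6.87 CPM with doxycycline and 1.23, 4.21 and 1.90 CPM without it (log2 fold change 1.64 ± 0.404 SE, adjusted p = 0.0356), with no-doxycycline replicate 2 the highest of its group, and its adjusted p reached 0.169 with doxycycline library 2 left out. Of 21 NF-kB subunits and feedback genes 2 rose and 1 fell (14.3% called; 2 and 2 without no-doxycycline replicate 2): Vcam1 and Tnfaip2 (0.41) rose and Tnfaip3 (−0.58), the deubiquitinating brake of the pathway, fell, and adjusted p for the latter pair reached 0.251 with doxycycline library 2 left out and 0.0679 with doxycycline library 3 left out.

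Several enzymes of prostaglandin synthesis fell. Of 19 tested eicosanoid genes 4 fell and 0 rose (21.1% called; 0 and 4 without no-doxycycline replicate 2; 2 higher and 4 lower with unadjusted p under 0.05, and 0 and 3 by DESeq2). Ptgs2, the inducible cyclooxygenase, dropped from 438, 504 and 464 CPM to 157, 178 and 187 CPM (log2 fold change −1.43 ± 0.0908 SE, adjusted p = 6.91e-06). Pla2g4a, the phospholipase that frees arachidonic acid for it, dropped from 370, 282 and 287 CPM to 208, 194.7 and 193 CPM (log2 fold change −0.66 ± 0.105 SE, adjusted p = 0.00329). Akr1b3, aldose reductase, which also reduces a prostaglandin precursor, was at 1871, 1844 and 1804 CPM with doxycycline and 4194, 4196 and 3949 CPM without it (log2 fold change −1.16 ± 0.0727 SE, adjusted p = 6.77e-06; 88.7% unique 31-mers). In these 3 each induced library was below each uninduced one, and the calls held with any library left out. Akr1c18, a steroid and prostaglandin reductase, was close to the limit of detection at 0, 0 and 0.162 CPM with doxycycline and 1.72, 1.05 and 0.995 CPM without it, and its call (adjusted p = 0.0247) ended without 5 of the libraries (up to 0.154 with doxycycline library 2 left out).

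Immediate early genes, which serum and stress induce within minutes, were lower as a group of counts: 9 of 30 fell, 1 rose and 20 did not pass (33.3% called; 1 and 9 without no-doxycycline replicate 2; median −0.32 against −0.0074 of all genes). Fosb, an AP-1 subunit, went from 14.2, 20.7 and 11.3 CPM to 5.32, 4.76 and 5.09 CPM (log2 fold change −1.60 ± 0.244 SE, adjusted p = 0.00229). Ier2, a small nuclear protein, went from 21.6, 18.9 and 18.2 CPM to 10.5, 10.98 and 8.41 CPM (log2 fold change −0.98 ± 0.169 SE, adjusted p = 0.00515). In both genes the induced values were close together and all lay below the uninduced ones. Zfp36, which destabilises cytokine mRNAs, was at 10.3, 8.74 and 6.06 CPM with doxycycline and 20.1, 14.8 and 13.3 CPM without it (log2 fold change −0.96 ± 0.234 SE, adjusted p = 0.0334, up to 0.149 with doxycycline library 3 left out). Klf4, a zinc finger factor of growth arrest, was the 1 that rose, from 103, 98.6 and 92.8 CPM to 218, 224 and 215 CPM (log2 fold change 1.16 ± 0.0769 SE, adjusted p = 7.2e-06). The summed level of the 30 genes was 1448, 1435 and 1407 CPM with doxycycline and 1720, 1574 and 1484 CPM without, a difference of −163 CPM (exact permutation test, two-sided p = 0.1, the smallest that 3 against 3 allows).

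Contractile and SRF target genes, which also respond to serum and to tension, fell in 8 of 31 tested cases and rose in 1 (29% called; 1 and 9 without no-doxycycline replicate 2; median −0.19). Ankrd1, a target of SRF and YAP, was at 69.4, 60.7 and 51.7 CPM with doxycycline and 95.0, 95.1 and 83.8 CPM without it (log2 fold change −0.59 ± 0.114 SE, adjusted p = 0.00993). Myh9, the nonmuscle myosin heavy chain, was at 1369, 1382 and 1512 CPM with doxycycline and 2260, 1780 and 1820 CPM without it (log2 fold change −0.46 ± 0.10 SE, adjusted p = 0.0197), and Smtn, smoothelin, fell as well (−0.51 ± 0.132 SE, adjusted p = 0.0447). Fhl2, a LIM protein of focal adhesions, was the 1 riser (0.66 ± 0.140 SE, adjusted p = 0.0167). The groups did not overlap in these 4 genes, but none of the 4 calls held with each library left out (adjusted p up to 0.0641 with doxycycline library 2 left out, 0.133 with doxycycline library 2 left out, 0.201 with doxycycline library 3 left out and 0.0921 with doxycycline library 3 left out).

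Cholesterol synthesis leaned upward by small steps. Of 30 tested genes 8 rose and 0 fell (26.7% called; 10 and 0 without no-doxycycline replicate 2; 13 and 0 with unadjusted p under 0.05, 9 and 0 by DESeq2), 25 of the 30 values lay above 0, and the median was 0.22. Sqle, squalene epoxidase, went from 178, 157 and 157 CPM to 239.7, 224 and 237 CPM (log2 fold change 0.51 ± 0.0802 SE, adjusted p = 0.00277) and Ebp, a sterol isomerase, from 39.4, 31.1 and 36.6 CPM to 52.8, 61.2 and 61.4 CPM (log2 fold change 0.71 ± 0.119 SE, adjusted p = 0.00441). Both pairs of groups were separate and both calls held with any 1 library left out. Msmo1 (0.49) and the feedback regulator Insig1 (0.47) rose too, with adjusted p up to 0.0701 with doxycycline library 2 left out and 0.0769 with doxycycline library 2 left out. The master regulator Srebf2 (0.04 ± 0.0869 SE, adjusted p = 0.849) did not pass.

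Fatty acid genes counted 4 higher and 2 lower of 25 (24% called; 5 and 2 without no-doxycycline replicate 2). Fabp5, a fatty acid carrier, went from 94.1, 97.7 and 82.3 CPM to 136, 127 and 143 CPM (log2 fold change 0.57 ± 0.0914 SE, adjusted p = 0.00333). Fabp4, the adipocyte carrier, was low at 1.48, 2.04 and 1.13 CPM with doxycycline and 0.307, 0.351 and 0.0905 CPM without it (log2 fold change 2.58 ± 0.673 SE, adjusted p = 0.0449, up to 0.272 with doxycycline library 2 left out), while other adipocyte markers summed with it to 3.83 CPM at most. The elongases Elovl5 (0.43) and Elovl6 (0.39) rose and Elovl1 (−0.48) and the lipid droplet protein Plin2 (−0.46) fell, and adjusted p for these 4 reached 0.0789, 0.0915, 0.171 and 0.126.

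Glycolysis and hypoxia genes counted 1 higher and 4 lower of 31 (16.1% called; 1 and 5 without no-doxycycline replicate 2). Gapdh went from 542, 429.8 and 369.9 CPM to 267, 283 and 259 CPM (log2 fold change −0.73 ± 0.1250 SE, adjusted p = 0.00664; 71.9% unique 31-mers), with the uninduced libraries widely spread, and its adjusted p was 0.0588 with doxycycline library 3 left out. Vegfa fell and kept its call, while Pgk1 (−0.35, 45.3% unique 31-mers), P4ha1 and the histone demethylase Kdm3a (0.35), which rose, did not (adjusted p up to 0.12 with doxycycline library 1 left out, 0.166 and 0.155 with doxycycline library 3 left out). In the integrated stress and unfolded protein list 4 of 38 fell and 0 rose (10.5% called; 1 and 5 without no-doxycycline replicate 2; 1 higher and 12 lower with unadjusted p under 0.05, 0 and 5 by DESeq2). They were Chac1 (−0.65), Ddit3 (−0.53), Ppp1r15a (−0.53) and Pdia4 (−0.46), and all 4 lost their calls without some library (adjusted p up to 0.115 with doxycycline library 1 left out, 0.225 with doxycycline library 2 left out, 0.102 with doxycycline library 1 left out and 0.117 with doxycycline library 2 left out).

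Detoxification and p53 targets went both ways. Nqo1, a quinone reductase, went from 27.5, 21.3 and 21.7 CPM to 50.2, 52.8 and 53.3 CPM (log2 fold change 1.14 ± 0.126 SE, adjusted p = 0.000237), against falls of Akr1b8 (−0.59 ± 0.0947 SE, adjusted p = 0.00333), Gpx1 (−0.68, up to 0.188 with doxycycline library 2 left out) and Gsta4 (−0.49, up to 0.0919 with doxycycline library 2 left out). The other member of that list to rise was Ephx1, an epoxide hydrolase (0.39, up to 0.1 with doxycycline library 3 left out), which made 2 higher and 3 lower of 33 (15.2% called; 4 and 4 without no-doxycycline replicate 2). Plk2, a kinase induced by damage and by serum, was the firmest fall among 25 p53 targets, from 404, 385 and 383 CPM to 207, 214 and 212 CPM (log2 fold change −0.89 ± 0.0713 SE, adjusted p = 2.1e-05). In that list Plk3 fell too (−0.84) and Trp53inp1 (0.63) and Eda2r (0.46) rose (16% called; 2 and 2 without no-doxycycline replicate 2), with adjusted p up to 0.118 with doxycycline library 3 left out, 0.0927 with doxycycline library 3 left out and 0.132 with doxycycline library 3 left out. Of 18 clock genes 2 rose, Arntl (0.65) and Nr1d2 (0.46), and 2 fell, Hlf (−0.59) and Bhlhe40 (−0.45), or 3 and 2 in number without no-doxycycline replicate 2, with adjusted p up to 0.203 with doxycycline library 1 left out, 0.156 with doxycycline library 2 left out, 0.092 with doxycycline library 2 left out and 0.212 with doxycycline library 3 left out.

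Proliferation genes gave few calls. Of 40 mitosis genes edgeR called 0 (1 higher and 6 lower with unadjusted p under 0.05, 0 by DESeq2; 1 and 1 without no-doxycycline replicate 2), and of 40 replication genes it called 1, Ccne1 (−0.47), which was lower and whose call ended with any library left out (adjusted p up to 0.164 with doxycycline library 2 left out). The replication list gave 1 and 1 without no-doxycycline replicate 2. Among 13 G1 cyclins and inhibitors 3 rose and 0 fell (23.1% called; 3 and 1 without no-doxycycline replicate 2; 4 and 2 with unadjusted p under 0.05, 3 and 2 by DESeq2), and Ccnd1 was the largest. With it, Cdk6, its partner kinase (0.52, up to 0.129 with doxycycline library 3 left out), and Rbl2, a pocket protein (0.40, up to 0.179 with doxycycline library 1 left out), rose.

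Tetracyclines are known inhibitors of mitochondrial ribosomes, and 3 lists cover mitochondrial genes. None of the 13 genes encoded in the organelle was called, with or without no-doxycycline replicate 2 (0 with unadjusted p under 0.05 and 0 by DESeq2), and their median was −0.30, or −0.77 without that library. Their share of counts was 2.22, 1.94 and 1.74% with doxycycline and 3.34, 1.20 and 1.92% without it, so the groups overlapped, with the highest and the lowest library both in the uninduced group (exact permutation test, two-sided p = 0.9). Of 47 nuclear respiratory chain genes 0 were called (0 higher and 10 lower with unadjusted p under 0.05, 0 and 1 by DESeq2); 3 of the 47 values lay above 0, the median was −0.20, and 5 members fell without no-doxycycline replicate 2. Of 29 genes of the mitochondrial ribosome and mitochondrial stress 0 were called as well (1 higher and 3 lower with unadjusted p under 0.05, 0 by DESeq2, 0 without no-doxycycline replicate 2; median −0.09). The interferon list gave 2 higher and 1 lower of 37 (8.11% called; 2 and 2 without no-doxycycline replicate 2). Ifit2, an antiviral effector (0.50), and B2m, the light chain of class I molecules (0.30), rose while H2-D1, a class I heavy chain (−0.43, 73.1% unique 31-mers), fell, with adjusted p up to 0.102 with doxycycline library 3 left out, 0.254 with doxycycline library 2 left out and 0.1 with doxycycline library 2 left out. Of 22 heat shock chaperones 1 fell (4.55% called; 0 and 2 without no-doxycycline replicate 2), Dnajb4 (−0.63 ± 0.0956 SE, adjusted p = 0.00235).

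Most members of the lists of other tissues did not pass the filter on low counts. Of 19 epithelial genes 3 were tested and 1, the desmosomal Pkp2, fell, from 14.3, 14.8 and 10.6 CPM to 6.06, 5.54 and 4.77 CPM (log2 fold change −1.28 ± 0.215 SE, adjusted p = 0.00425). Cartilage and bone genes had 1 fall in 7 tested, Spp1, osteopontin, which went from 323, 259 and 266 CPM to 158, 173 and 194.8 CPM (log2 fold change −0.69 ± 0.106 SE, adjusted p = 0.00254). Muscle genes had 1 rise in 6 tested, Mef2c (0.60 ± 0.139 SE, adjusted p = 0.0258, up to 0.134 with doxycycline library 2 left out), and adipocyte genes 1 in 3, Fabp4. Immune (7 tested), endothelial (3) and neural (7) lists gave 0 calls by edgeR (1 higher and 1 lower, 0, and 1 higher with unadjusted p under 0.05) and 0 by DESeq2. Without no-doxycycline replicate 2 the calls in these 7 lists were of the same number but for 1 lower immune marker.

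**Figure D5:**
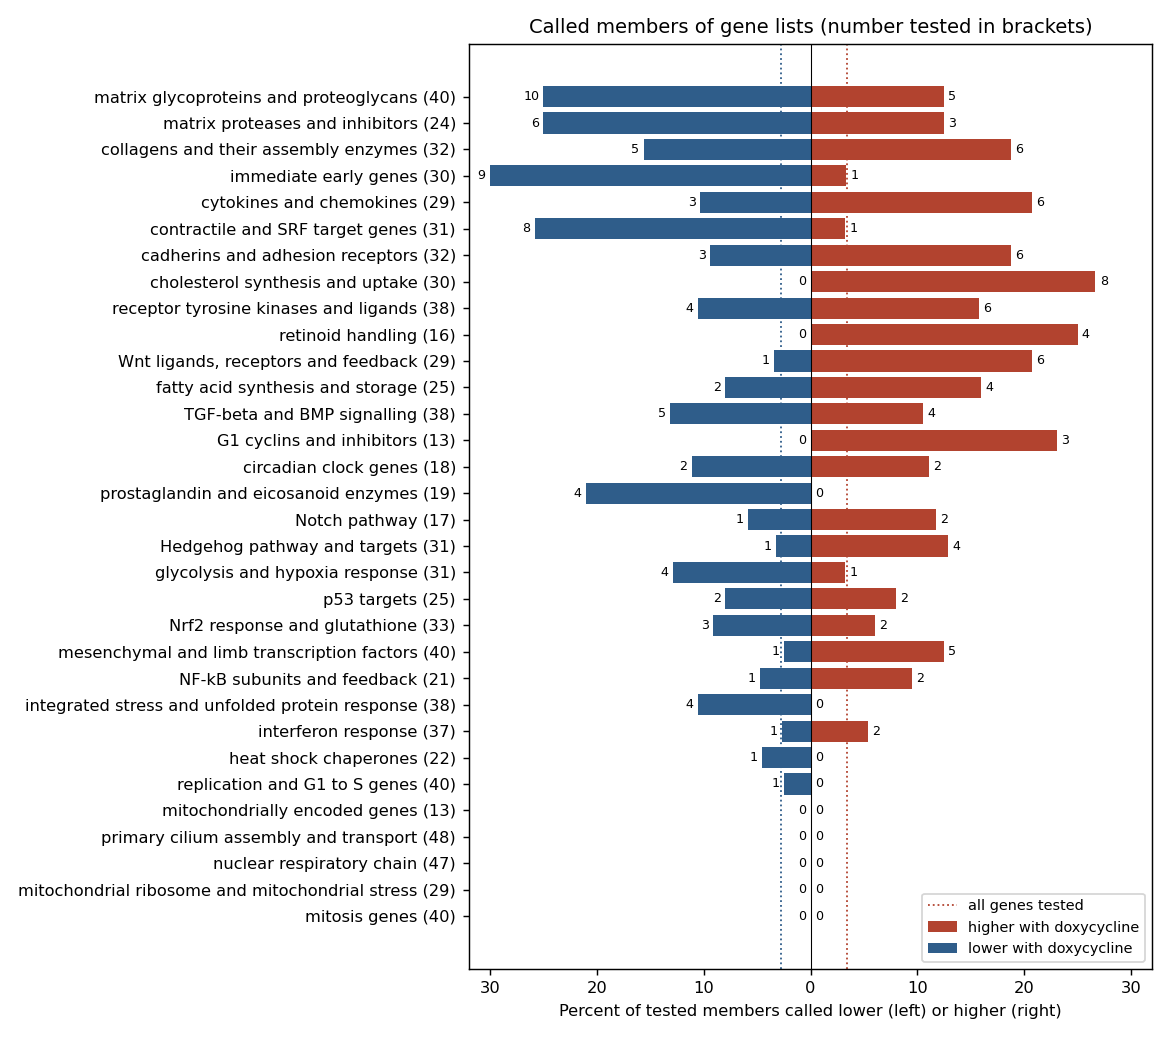
Percent of the tested members of each gene list that were called higher (right) or lower (left), with the number called at the end of each bar and the number tested in brackets; dotted lines mark the share of all genes tested, 3.45% higher and 2.74% lower. Lists with fewer than 12 tested members are not drawn, and the lists were chosen with earlier results of these data known. Immediate early genes have 9 lower and 1 higher of 30, cholesterol genes 8 higher and 0 lower of 30.

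At the transcript level far fewer features passed. Of 37094 transcripts tested 56 changed (0.151%), 38 higher and 18 lower, and 107 of 19485 (0.549%) under the stricter filter, 70 of them higher (0.359%). The count fell to 0 or 1 with any 1 library left out, so the transcript calls rest on all 6 libraries. In simulated counts with known changes the transcript test recovered 0 of 64 changes of 2-fold, 18.3% of 4-fold and 41.4% of 16-fold. The gene test recovered 68.7% of 2-fold changes there. The small number of transcript calls therefore does not show that few transcripts changed. For genes with 1 dominant transcript the values followed the gene: Aldh1a1-201 was at 512, 503 and 562 TPM with doxycycline and 90.2, 107 and 84.3 TPM without it (log2 fold change 2.43 ± 0.121 SE, adjusted p = 0.0142), and Aldh1a7-201 at 206, 196 and 171 against 25.4, 23.8 and 23.9 TPM (2.90 ± 0.124, adjusted p = 0.0116). Both were called in the set of all 6, with no overlap between groups, and gave adjusted p = 0.101 without no-doxycycline replicate 2. The others of the 24 genes' transcripts to pass were Pitpnc1-202, Adgrg1-201, Man1a-201 and Ccl9-201, with log2 fold changes of 2.20, 4.01, 2.18 and −2.25 (adjusted p = 0.0162, 0.0276, 0.0215 and 0.0459).

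Several of these genes split their reads between transcripts unevenly from library to library. Ly6c1-201 was at 78.9, 74.7 and 17.6 TPM with doxycycline while Ly6c1-202 was at 5.16, 7.94 and 42.4 TPM, so that the third induced library differed from its mates although its gene level did not stand apart to that degree. Of 32311 transcripts tested for changed usage within their gene 58 passed (0.18%), and 15 under the stricter filter. In simulated data the same test called 49 unchanged transcripts with 28635 tested. Neither the count of 58 nor any single member of the 58 is therefore read as changed usage. Among them were transcripts with a deposited value of 0 in a whole group, such as Snd1-211 and Srsf1-202, listed at 0 TPM in all 3 doxycycline libraries and at 14.4 to 72.7 and 5.38 to 12.3 TPM without it. A limma test on the log2 ratio of TPM called 0 of 37827 transcripts.

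The nearest other experiment of the series delivered Prrx1 on a plasmid, with 3 libraries and 3 of a control plasmid, and shares no control with this one. The change with doxycycline minus the change with the plasmid was tested in 1 fit over the 12 libraries, whose common scaling sets the levels given here. It differed for 612 of 15218 genes (4.02%), 302 more positive with doxycycline (1.98%) and 310 more negative (2.04%). Prrx1 itself rose less with doxycycline, from 958 ± 76.8 to 3682 ± 229 CPM, than with the plasmid, from 607 ± 91.2 to 16740 ± 2870 CPM (SD, n = 3; difference −2.84 ± 0.175 SE on the log2 scale, adjusted p = 2.32e-07).

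The genes that rose most with doxycycline had small changes with the plasmid. They were picked by their doxycycline change, which is a part of the difference tested, so a positive difference was partly built in. Cck was at 40.0 ± 10.2 CPM under the control plasmid and 43.7 ± 10.5 CPM under the Prrx1 plasmid, a level well over that of the induced transduced cells (6.15 ± 1.51 CPM), and the changes differed by 5.12 ± 0.586 (adjusted p = 0.000149). Adgrg1, Aldh1a7, Prelp and Ptx3 had plasmid changes of −0.31, −0.29, −0.12 and −0.29 on the log2 scale, with differences of 3.84, 3.19, 2.89 and 2.64 (adjusted p = 2.32e-07, 7.99e-07, 0.00249 and 0.00933). Gli2 was at 22.8 ± 1.80 CPM with the control plasmid and 22.4 ± 0.415 CPM with the Prrx1 plasmid, against 21.2 ± 3.91 and 58.7 ± 3.51 CPM without and with doxycycline, and the difference of 1.51 ± 0.172 passed (adjusted p = 6.48e-05).

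On the other side, Sdk2, an adhesion molecule of synapses, rose with the plasmid (0.519 ± 0.122 to 10.8 ± 0.974 CPM) and was at 1.21 ± 0.385 and 1.92 ± 0.691 CPM without and with doxycycline (difference −3.76 ± 0.477, adjusted p = 0.000158). P2rx7, an ATP-gated channel, rose with the plasmid from 5.49 ± 0.701 to 21.4 ± 4.65 CPM and was under 0.3 CPM on average in both transduced groups, where it was too low to be tested by itself. Its difference (−3.62, adjusted p = 0.0366) lost its call without any of 9 of the 12 libraries, and so did that of Asdurf (−3.68, adjusted p = 0.042), none of whose 31-mers is unique. Baselines differed between the experiments by far more than the spread of replicates for some genes: Aldh1a1 was at 120 ± 13.8 CPM in uninduced transduced cells and 2.90 ± 0.404 CPM with the control plasmid, and Has2 at 5.51 ± 1.12 and 58.6 ± 11.9 CPM. Cells, delivery and experiment cannot be told apart in these differences.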

How the data were processed

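The files hold bulk mRNA-seq values for 30 libraries, of which the 6 of this experiment and, for 1 comparison, 6 of a plasmid transfection were used. Per the submitters' processing notes the authors used kallisto 0.43.0 and the mouse build mm10; the annotation release, read layout and strand setting are not given in the sources used here. The authors deposited, per transcript and library, estimated counts, TPM (length-scaled transcript abundance) and the length and effective length in bases. Of 118491 targets 116816 matched GENCODE M21 by transcript identifier, 2 were added sequences (GFP and mScarlet) and 1673 were unmatched (0.605 to 0.694% of counts).

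Estimated counts as deposited were summed per gene (36047 genes) and rounded. Genes passing edgeR's filterByExpr (minimum count 10, total 15) were tested with edgeR 4.0.16 in R 4.3.3 (TMM scaling, robust quasi-likelihood fit, prior count 0.125) and Benjamini-Hochberg adjustment over all features tested, with a threshold of 0.05. Levels are TMM-scaled CPM, counts brought to a common library size, ± gives the standard error from the F statistic (SE) or the SD of 3 libraries, and every level shares the depth limits of its library. Transcripts were tested in the same way. The usage test, which asks whether a transcript's change differs from that of its gene, called 49 unchanged transcripts in simulated data. It is reported as a count only, and neither the count nor single transcripts are read as changed usage. The difference from transfection is an interaction term over 12 libraries. DESeq2 1.42.0 and limma 3.58.1 (on log2 of TPM plus 1 or 0.1) served as alternatives, and the scripts were tested on simulated counts.

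The 12 largest rises and 12 largest falls were taken among called protein-coding genes with at least 5 CPM in the higher group and no predicted name, together with up to 4 called members of each of 39 gene lists, any member behind a count of 5 or fewer, Prrx1, Prrx2, the added sequences and Hedgehog genes, and the 5 largest differences each way. The experiment, the lists and these rules were chosen with earlier results of these data known. Uniqueness is the percent of a gene's transcript 31-mers found in no other gene, given where it is under 90%. No protein sequences were used here. Some items are not reported here.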

Additional observations from a re-analysis of the deposited data

Results flagged for a closer look

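The 28 genes here passed the test over 12 libraries of whether the change with doxycycline differs from that with the Prrx1 plasmid. In all, 612 genes passed it. The genes looked up were the 5 largest differences each way, the genes named in advance, and the 12 largest rises and 12 largest falls with doxycycline. Those rises and falls were picked by their doxycycline change, which is a part of the difference, so their differences were partly built in. Each value is the log2 fold change with doxycycline minus that with the plasmid. More positive with doxycycline were Cck (5.12), Adgrg1 (3.84), Aldh1a7 (3.19), Prelp (2.89), Ptx3 (2.64), Arnt2 (2.37), Fgd3 (2.35), Aldh1a1 (2.14), Ly6c1 (2.14), Dio2 (2.14), Man1a (2), Pitpnc1 (1.89) and Gli2 (1.51). More negative were Akr1c18 (−4.09), Sdk2 (−3.76), Asdurf (−3.68), P2rx7 (−3.62), Prrx1 (−2.84), AL731706.1 (−2.56), Cp (−2.39), Ccl9 (−1.94), Brinp1 (−1.77), Fam110c (−1.69), Pi15 (−1.63), Fosb (−1.62), Upk1b (−1.56), Has2 (−1.39) and GFP (−0.858).

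Of the 28, 24 stayed called with any 1 of the 12 libraries left out, the exceptions being Asdurf, P2rx7, Upk1b and Has2. Akr1c18 was at 0.0507 ± 0.0878 CPM with doxycycline (SD, n = 3), so the size of its difference rests on few counts. GFP was at 208 ± 20.1 CPM with the control plasmid and 303 ± 12.5 CPM with the Prrx1 plasmid, against 76.4 ± 7.44 CPM without and 61.7 ± 4.55 CPM with doxycycline.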

How the results depend on the processing

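The count of 844 genes stayed within 1.5 times under RLE scaling (832), upper quartile scaling (821), the stricter filter of 5 CPM in 3 libraries (868), DESeq2 (1034), no robust estimation (730) and offsets at fixed transcript shares (841). It was 1326 with no filter (46.2% of calls higher against 55.8%), 155 and 149 with limma on log2 of TPM plus 1 and plus 0.1 (72.3 and 71.1% higher), 2728 with all 30 libraries in the fit (34.8% higher) and 302 with effective length offsets. Leaving out 1 library gave 335 to 1250. The last offsets, those at fixed shares, the usage block and the ratio test were added after seeing the data. The 56 transcripts became 107 with the stricter filter, 27 with limma and 0 to 1 without 1 library. The 58 usage calls became 15 with the stricter filter, 0 in the ratio test and 30 to 145 without 1 library, with 145 when no-doxycycline replicate 2 was left out. The 612 differences from transfection became 692 with the stricter filter, 975 with DESeq2 and 299 to 1118 without 1 library, 1118 without control plasmid replicate 1, 942 without no-doxycycline replicate 2 and 299 to 390 without any doxycycline or Prrx1 plasmid library or control plasmid replicate 2 or 3. The cause of these shifts was not tested.

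Whether replicate numbers pair the samples is not stated in the labels, and 3 libraries a group are too few to settle it. Deviations of same-numbered libraries correlated at 0.023, 0.053 and −0.0089, and 3 of 6 libraries correlated best with their own number. With the replicate number as a block the counts were 843 genes (753 shared with the 844), 0 transcripts, 15 usage calls and 644 differences. Of 139 named genes called, 129 stayed called under the block, 65 with every library left out in turn and 64 with effective length offsets, and of 137 tested there limma on TPM plus 1 and plus 0.1 kept 40 and 41.

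Reversed were Ptch1 (−0.179 with effective length offsets), Gli1 (0.00175 and 0.0159 with limma), Itga8 (−0.137 and −0.144 with limma, −0.173 with effective length offsets), the difference in mitochondrial share (from −0.187 to 0.407 percentage points without no-doxycycline replicate 1, lowest −0.663) and in genes at equal depth (from 353 to −439 without no-doxycycline replicate 2, highest 796). At 7947214 and 8446887 counts, the shallowest library of each group limits what can be told of genes near 1 CPM.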

Other observations

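Genes of hyaluronan turnover outside the lists and the naming rule were looked at after their values were seen. Cemip, which drives the breakdown of hyaluronan, was at 239, 243 and 210 CPM with doxycycline and 61.1, 63.0 and 61.6 CPM without it. The rise was as tight as that of Prrx1 (log2 fold change 1.90 ± 0.0851 SE, edgeR adjusted p = 3.08e-07). Tnfaip6, which transfers protein chains onto hyaluronan, was low and fell, from 1.60, 3.04 and 1.54 CPM to 0.495, 0.291 and 0.485 CPM (−2.23 ± 0.584 SE, adjusted p = 0.0455, and 0.0639 without no-doxycycline replicate 2). Has2, a synthase, fell as given above, while Has1 (−0.31 ± 0.228 SE, adjusted p = 0.521), Has3 (0.09 ± 0.306 SE, adjusted p = 0.917), the receptors Cd44 (−0.04 ± 0.0727 SE, adjusted p = 0.829) and Hmmr (0.02 ± 0.0846 SE, adjusted p = 0.927) and the hyaluronidase Hyal2 (0.02 ± 0.203 SE, adjusted p = 0.982) overlapped between groups and did not pass.

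Other well-measured rises outside the lists, also picked after their values were seen, were of Hdac9, a class II histone deacetylase (46.0, 44.2 and 46.9 CPM against 13.8, 17.2 and 18.7 CPM, adjusted p = 5.29e-05), Rab3c, a GTPase of regulated secretion (55.7, 59.3 and 65.8 against 17.9, 20.5 and 16.3 CPM, adjusted p = 1.1e-05) and Angptl4, an inhibitor of lipoprotein lipase (63.7, 71.7 and 65.5 against 18.1, 29.0 and 17.2 CPM, adjusted p = 0.000427). Pseudogenes made up 22 of the 373 genes that fell (5.9%) and 5 of the 471 that rose (1.06%), against 854 of all 13633 genes tested (6.26%); no test was made of these shares.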
